A study of Mus musculus with 16 samples.

Results

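The comparison described here set the kidney cortex of mice with an induced Degs1 knockout against that of control littermates after ischemia and reperfusion. It took all libraries labelled with ischemia-reperfusion injury (IRI), 4 of each genotype, which are 8 of the 16 libraries of the series. The other 8 libraries came from sham-operated mice of both genotypes, 4 of each. RNA was sequenced from whole cortex, so fewer cells of a type and less RNA per cell cannot be told apart in any value below.

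All mice were male C57Bl/6J animals with floxed Degs1 alleles. Controls are labelled Degs1fl/fl (written fl/fl here), with no Cre named. Knockouts (Degs1iGKO, written iGKO) also carried Rosa26-CreERT2, a Cre recombinase that is expressed in nearly all cells and becomes active with tamoxifen, so the deletion was not limited to the kidney or to tubule cells. Both genotypes received 3 mg of tamoxifen on each of 5 days at 9 weeks of age and were operated on at 12 weeks. For IRI both renal pedicles were clamped, for 28 min as the general setting, and reperfusion lasted up to 24 h; the labels give no other time for single samples. Sham mice had the same surgery without the clamp. Cre is named for the knockouts only, so an effect of activated CreERT2 itself and an effect of losing Degs1 cannot be told apart in this design. All libraries carried the same batch label. The replicates are the separate samples of the labels, which do not say that each came from a different mouse, so the p-values measure the spread between these samples.

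Ceramide is built from serine and a fatty acid: serine palmitoyltransferase, whose catalytic subunits include Sptlc2, starts the pathway, ceramide synthases add a second fatty acid, and DEGS1 puts a double bond into dihydroceramide to give ceramide. Ceramides are membrane lipids that also act in insulin signaling, mitochondrial function and cell death. The proximal tubule lives on fatty acid oxidation and is the segment most exposed to ischemia. Injured tubule cells lose their transporters and switch on a program of secreted and surface proteins, stress factors and repair transcription factors, and neutrophils and monocytes enter the tissue in the first day.

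Total counts in the 8 IRI libraries ranged from 12704273 to 16953513, and 24454 to 25818 genes had at least 1 read. Levels are given as CPM, the reads of a gene scaled to a common library size with TMM factors, which compare 1 gene between libraries and not different genes with each other. One control library stood apart. On the first principal component of log2 CPM, which held 32.9% of the variance, fl/fl IRI 1 scored 0.668, fl/fl IRI 2 to 4 scored 52.3, 82.8 and 109, and the iGKO IRI libraries scored from -13.4 to 5.91. The share of reads from mitochondrially encoded genes was 2.99% in fl/fl IRI 1, 4.56% to 5.37% in the other fl/fl IRI libraries and 2.05% to 4.51% in iGKO IRI. Among the sham libraries, which share the estimate of spread, iGKO sham 4 had a mitochondrial share of 0.443%. A pair of knockout libraries each stood out in a different marker list. A list of 21 markers of adrenal gland, fat, skeletal muscle and urothelium had 12 tested members, none of them a skeletal muscle marker. In iGKO IRI 3 the summed level of these 12 was 1128 CPM, against 63.2 to 155 CPM in fl/fl IRI and a lowest iGKO IRI value of 34.8 CPM. In iGKO IRI 2 the summed level of 23 fibroblast and mural cell markers was 11570 CPM, the top of an iGKO IRI range that began at 2200 CPM, against 1346 to 2643 CPM in fl/fl IRI. Markers of proximal tubule, thick ascending limb and podocytes were present in every library.

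Degs1 itself checks the labels. Its level was 88.8, 115, 133 and 114 CPM in fl/fl IRI 1 to 4 and 58.4, 54.8, 44.7 and 59.8 CPM in iGKO IRI 1 to 4. Every knockout library lay below every control library. The group values were 113 ± 18.2 CPM in fl/fl IRI and 54.5 ± 6.81 CPM in iGKO IRI (SD, n = 4 each), which put the log2 fold change at -1.05 ± 0.18 (SE) with an adjusted p of 0.0325 (edgeR quasi-likelihood test, Benjamini-Hochberg over all genes tested). An exact two-sided permutation test on log2 CPM gave p = 0.0286, the smallest that 4 libraries against 4 allow. After sham surgery the levels were 100.3 ± 12.3 CPM (fl/fl) and 57.0 ± 14.3 CPM (iGKO). The exons removed by the deletion are not given in the sources used here and counts cover the whole gene, so the remaining level does not measure recombination. Degs2, which encodes the related desaturase and sphingolipid hydroxylase, had 30.1, 29.6, 10.0 and 15.9 against 24.9, 16.4, 14.0 and 28.6 CPM in the same order, and the groups overlapped (log2 -0.03 ± 0.35, adjusted p = 0.972).

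The messenger RNA of Sptlc2, a subunit of the enzyme of the first step of the same pathway, was also lower in the knockout. Sptlc2 stood at 157, 288, 220.3 and 454 CPM in fl/fl IRI 1 to 4 and 147, 113, 109 and 142 CPM in iGKO IRI 1 to 4, and fell by 1.13 ± 0.23 with an adjusted p of 0.0398. Sham kidneys held 109 ± 9.03 CPM (fl/fl) and 117 ± 3.76 CPM (iGKO), and fl/fl IRI 4 was the highest library. Degs1 and Sptlc2 were the 2 called genes (adjusted p under 0.05 in this edgeR test) among 14 tested members of the ceramide synthesis list, whose median log2 value was -0.19 and ranged over -0.22 to -0.12 with 1 library left out. Over all tested genes 0.673% were called lower and 0.178% higher, and the median was -0.015. Kdsr, the reductase between these steps, (-0.68 ± 0.19, adjusted p = 0.0903) and the ceramide synthase gene Cers5 (-0.46 ± 0.14, 0.111) missed the threshold. None of 26 tested genes of ceramide use and breakdown was called by edgeR. DESeq2 called 2 of them lower, beside 539 lower and 406 higher of all 34327 genes given a p-value. With edgeR, 6 were lower and 1 higher at an unadjusted p under 0.05, beside 10.2% and 8.94% of all genes. Sphk1, which makes sphingosine 1-phosphate, was at 9.23, 17.3, 44.1 and 144 against 7.05, 15.3, 7.52 and 8.18 CPM (log2 -2.49 ± 0.61, adjusted p = 0.0615), so fl/fl IRI 3 and 4 set its mean.

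Over all 17972 tested genes, 121 were lower (0.673%) and 32 were higher (0.178%) in iGKO IRI at an adjusted p under 0.05. A gene is named as called when it passed this edgeR threshold. The adjusted p-values lay close together, from 0.0325 to 0.04996. At an unadjusted p under 0.05 there were 1834 lower (10.2%) and 1606 higher genes (8.94%). Of all tested genes 51.4% had a negative and 48.6% a positive log2 value. Called lower genes had log2 values from -5.54 to -0.64 (median -1.42), and called higher genes from 0.65 to 5.46 (median 1.88). The 4 knockout libraries did not overlap the 4 controls in 84 of the 121 lower genes and 28 of the 32 higher genes. Without regard to the test, 547 genes (3.04%) were lower and 445 (2.48%) higher with no overlap.

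fl/fl IRI 1 was the control library nearest to the knockouts. It was the lowest fl/fl IRI library in 118 of the 121 lower genes and the highest in 21 of the 32 higher ones. In 37 lower genes it fell within the knockout range, and no other control library did so in any of them. The labels do not say whether the clamp or the reperfusion of fl/fl IRI 1 differed from that of the other controls, and this was not tested. Every fl/fl IRI mean given here includes this library with low injury genes. The number of calls depended on which libraries entered the model. With the 8 IRI libraries alone no gene was called by edgeR, with 2193 at an unadjusted p under 0.05 and a smallest adjusted p of 0.317. There 150 of the 153 genes were counted with the same sign, and a called gene that the filter removed is not in this count. Leaving out any one of the libraries fl/fl sham 4, controls 3 and 4 after IRI, and knockouts 1, 2 and 3 after IRI ended every call, those of the named genes below included. Without fl/fl IRI 1 the same model called 1282 genes higher and 1213 lower. That library was doubted after its low injury genes were seen, so this larger count is selected on the outcome and the values with it are the ones reported.

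**Figure D1:**
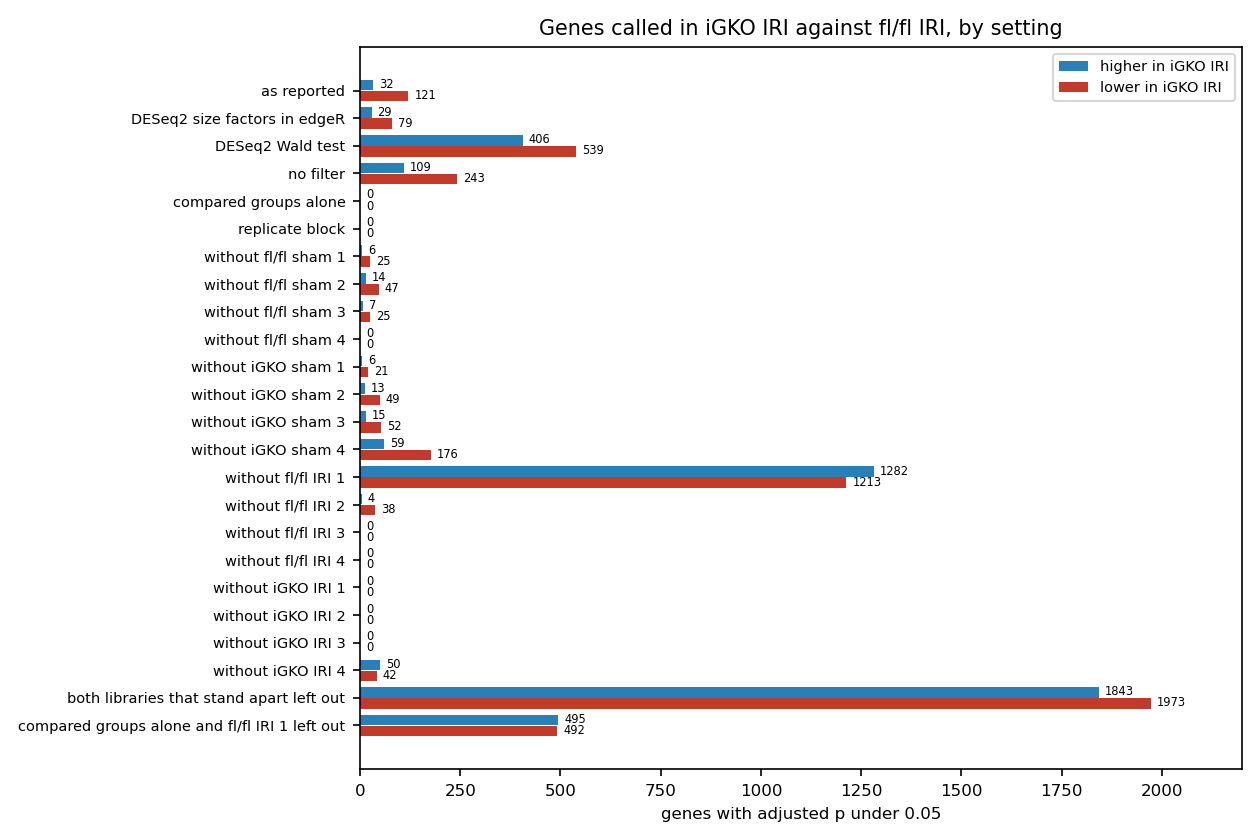
Number of genes with an adjusted p under 0.05 in iGKO IRI against fl/fl IRI (x axis, linear) under each setting of the model or with each library left out (y axis), higher genes in blue and lower genes in red. Counts run from 0 in both directions in several settings to 1282 higher and 1213 lower without fl/fl IRI 1 and 1843 and 1973 without both fl/fl IRI 1 and iGKO sham 4.

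Genes of tubular injury, repair, immediate early signaling and inflammatory feedback made up most of the called genes that belonged to a list. Of 29 tested tubular injury markers 9 were lower in the knockout, none was higher, and the median log2 value was -1.10. Krt20, a keratin induced in damaged tubule, stood at 10.3, 115, 475 and 894 CPM in fl/fl IRI 1 to 4 and 10.7, 6.66, 5.75 and 8.99 CPM in iGKO IRI 1 to 4. Control libraries 2 to 4 exceeded every knockout library many times over, and fl/fl IRI 1 lay within the knockout range. The log2 fold change of -5.54 ± 1.25 (SE) (adjusted p = 0.0479) was the most negative among the called genes. Sham kidneys held 1.95 ± 2.02 CPM (fl/fl) and 10.0 ± 16.3 CPM (iGKO).

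Lcn2, the secreted siderophore-binding protein NGAL, showed the same arrangement, with 47.6, 215, 412 and 322 CPM in fl/fl IRI 1 to 4 and 56.4, 35.2, 53.5 and 29.9 CPM in iGKO IRI 1 to 4. It fell by 2.51 ± 0.54 (adjusted p = 0.0453), although fl/fl IRI 1 again overlapped the knockouts. Clu, the secreted chaperone clusterin, fell by 1.93 ± 0.31 (adjusted p = 0.0325), from 609.9, 1669, 2197 and 921 CPM to 423, 361, 243 and 392 CPM, with no overlap. Spp1, which encodes the matrix protein osteopontin, was at 2750.0, 7574, 10009 and 6064 against 2562, 2031, 1078 and 1856 CPM and fell by 1.81 ± 0.40 (adjusted p = 0.0471). Here too every knockout library was below every control, with fl/fl IRI 1 only just above iGKO IRI 1. Gdf15, a stress-induced hormone of the TGF-beta family, fell by 2.50 ± 0.45, from 23.2, 69.0, 75.3 and 142 to 11.4, 11.8, 15.0 and 16.4 CPM. Its knockout libraries were near the sham means of 8.84 ± 3.70 CPM (fl/fl) and 11.7 ± 4.94 CPM (iGKO). The epithelial keratin Krt8 fell by 1.55 ± 0.31 (adjusted p = 0.0392), with fl/fl IRI 1 below iGKO IRI 4. Tnfrsf12a, a TNF receptor family member, and Plaur were also among the called members.

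Havcr1, which encodes the proximal tubule injury protein KIM-1, did not pass the threshold. Its level was 101, 1325, 1666 and 710.3 CPM in fl/fl IRI 1 to 4 and 84.0, 104, 28.0 and 122 CPM in iGKO IRI 1 to 4. Control libraries 2 to 4 stood above all knockout libraries, while fl/fl IRI 1 was below iGKO IRI 2 and 4, and the log2 value was -3.49 ± 0.85 (SE) with an adjusted p of 0.0615. Without fl/fl IRI 1 it was -3.87 with an adjusted p of 0.00384. Sham kidneys held 11.9 ± 8.90 CPM (fl/fl) and 45.0 ± 53.8 CPM (iGKO). iGKO sham 2 was at 126 CPM, above every iGKO IRI library.

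**Figure D2:**
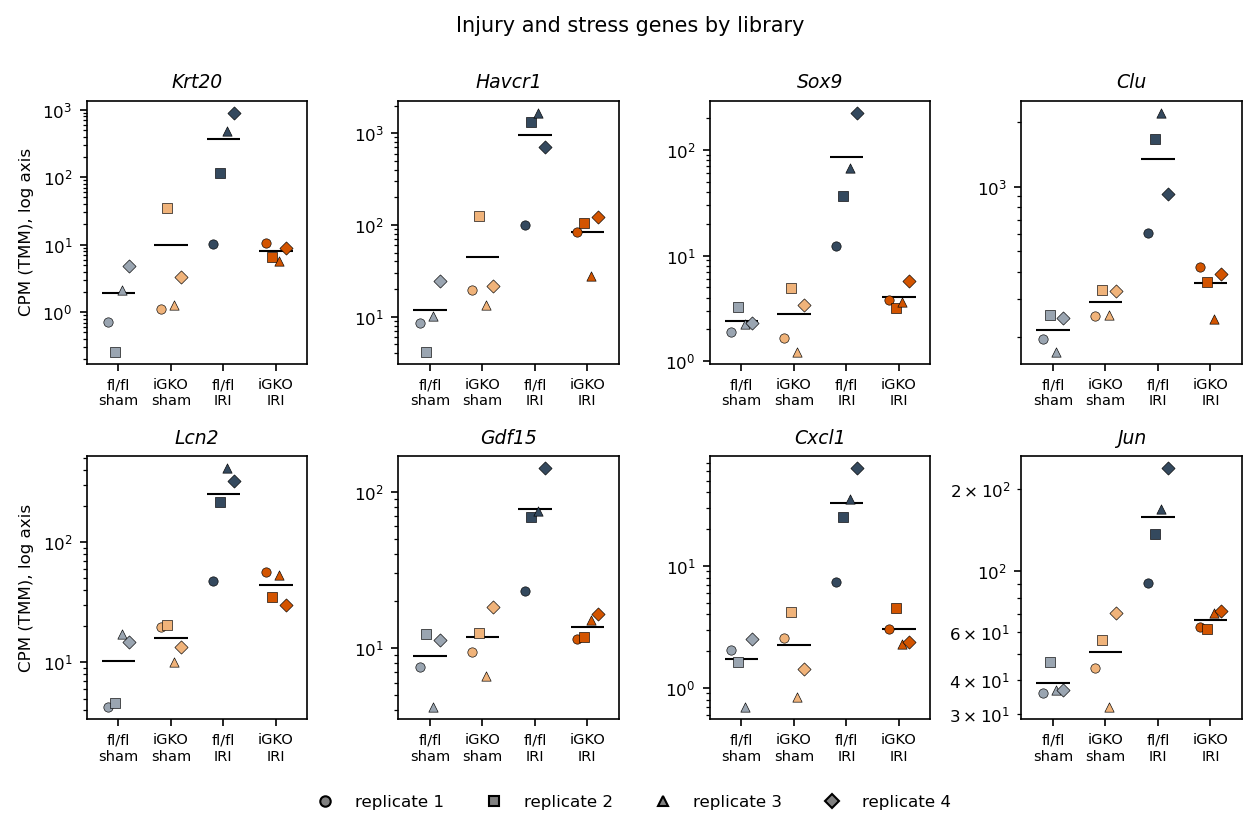
Levels of 8 injury and stress genes in each of the 16 libraries (y axis, CPM after TMM scaling, log axis), by genotype and operation (x axis). Symbols mark the replicate number, which the labels do not say links libraries of different groups, and horizontal lines are the group means of 4. In Sox9, Clu, Gdf15, Cxcl1 and Jun all 4 iGKO IRI libraries lie below all fl/fl IRI libraries, and in Krt20, Havcr1 and Lcn2 fl/fl IRI 1 lies among them.

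Of 22 tested genes of the repair and adhesion list 4 fell: Sox9, Klf6, Ets2 and Cldn4. Their list had a median of -0.84, which was -0.49 without fl/fl IRI 3. Sox9, which marks tubule cells that re-enter a regenerative state, was at 12.2, 36.6, 67.6 and 224 CPM in fl/fl IRI 1 to 4 and 3.79, 3.21, 3.60 and 5.74 CPM in iGKO IRI 1 to 4. The highest control library was fl/fl IRI 4, the lowest was fl/fl IRI 1, and the knockouts stayed near the sham means of 2.42 ± 0.577 CPM (fl/fl) and 2.78 ± 1.68 CPM (iGKO). It fell by 4.38 ± 0.68 (adjusted p = 0.0325). Klf6, a zinc finger factor, fell by 1.97 ± 0.42, from 106, 119.5, 256 and 670.1 to 65.3, 80.0, 73.0 and 75.5 CPM, and its log2 value was -1.13 without fl/fl IRI 4. Cldn4, a tight junction claudin, fell by 2.26 ± 0.44, from 30.3, 55.0, 219 and 138 to 22.2, 16.5, 26.9 and 26.9 CPM, and neither gene's groups overlapped. Ets2 fell by 0.93 ± 0.19, with fl/fl IRI 1 at 69.7 CPM below iGKO IRI 1 at 75.7 CPM.

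AP-1 is the dimer of Fos and Jun proteins that drives the first wave of transcription after stress. Of 25 tested immediate early genes 6 fell (Jun, Junb, Fosl2, Maff, Btg2 and Zfp36), none rose, 23 had a negative value and the median was -1.09, which was -0.60 without fl/fl IRI 4. Jun was at 90.1, 136, 169 and 238 CPM in fl/fl IRI 1 to 4 and 62.7, 61.2, 70.01 and 71.8 CPM in iGKO IRI 1 to 4. No library of the groups overlapped, and Jun fell by 1.25 ± 0.25 (adjusted p = 0.0398). Junb fell by 1.39 ± 0.29, from 53.9, 77.0, 124 and 154 to 32.1, 43.2, 36.3 and 44.8 CPM, and Maff, a small Maf factor, fell by 2.18 ± 0.45, from 14.1, 19.5, 40.3 and 70.6 to 4.97, 6.11, 8.85 and 12.0 CPM. Fosl1 and Atf3, also induced in injured tubule, were not called: Fosl1 was at 3.76, 16.0, 36.7 and 101 against 2.00, 1.48, 1.83 and 7.50 CPM (log2 -3.62 ± 1.04, adjusted p = 0.0957) and Atf3 at 11.6, 8.99, 29.7 and 22.2 against 4.31, 11.4, 7.39 and 5.00 CPM (-1.36 ± 0.39, adjusted p = 0.0923).

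Of 18 tested genes of EGF receptor ligands and MAPK feedback 3 were called, all lower, and the median was -0.72. Hbegf, the heparin-binding ligand of the EGF receptor, was at 20.9, 29.8, 45.6 and 57.0 CPM in fl/fl IRI 1 to 4 and 9.50, 12.0, 12.3 and 19.9 CPM in iGKO IRI 1 to 4 and fell by 1.51 ± 0.32 (adjusted p = 0.0426). Its groups did not overlap, with fl/fl IRI 1 only just above iGKO IRI 4. The MAPK phosphatase gene Dusp5 fell by 2.49 ± 0.53, and Dusp8 of the same family fell by 1.63 ± 0.35. Plaur, the urokinase receptor on the cell surface, fell by 2.15 ± 0.39, from 29.8, 46.6, 85.3 and 132 to 12.8, 18.2, 11.2 and 24.0 CPM, and the matrix protease gene Adamts1 fell by 1.78 ± 0.36, from 118, 226, 503 and 622 to 112, 108, 100.0 and 108 CPM. These were the 2 called members among 19 tested plasminogen and protease genes, whose median of -0.48 turned to 0.0475 without fl/fl IRI 3.

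The lists of stress responses to oxidants, amino acid shortage and DNA damage had 3, 1 and 1 called genes. All were lower, beside 0.673% of all tested genes. Hmox1, the heme-degrading enzyme heme oxygenase 1, was at 87.4, 509.7, 186 and 321 CPM in fl/fl IRI 1 to 4 and 109, 90.4, 56.4 and 70.1 CPM in iGKO IRI 1 to 4. Control libraries 2 to 4 were above all knockouts and fl/fl IRI 1 was not. It fell by 1.76 ± 0.39 (adjusted p = 0.0477). Srxn1, which repairs oxidized peroxiredoxins, fell by 1.97 ± 0.44, and Taldo1, an enzyme of the pentose phosphate pathway, fell by 1.02 ± 0.20. These 3 genes were called among 22 tested NRF2 and antioxidant genes (median -0.56). Chac1, a glutathione-degrading enzyme of the integrated stress response, was at 1.64, 3.25, 10.5 and 24.8 CPM in fl/fl IRI 1 to 4 and 0.445, 1.11, 1.39 and 0.811 CPM in iGKO IRI 1 to 4. Its groups did not overlap and it fell by 3.40 ± 0.67 (adjusted p = 0.0392). It rested on 619 reads in the 4 control and 58 in the 4 knockout libraries, and no other gene of 24 tested in that list was called by edgeR. The list had a median of -0.47, which was -0.28 without fl/fl IRI 4. Btg2, a growth-arrest gene also counted among the immediate early genes above, was the only member called by edgeR of 19 p53 response genes (median -0.48). It fell by 1.72 ± 0.36. Its log2 value was -0.97 without fl/fl IRI 4. Cdkn1a, the cell cycle inhibitor p21, missed the threshold at 28.3, 50.4, 108 and 307 against 25.5, 25.5, 36.9 and 23.6 CPM (log2 -2.14 ± 0.51, adjusted p = 0.0561), fl/fl IRI 4 being the highest library.

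No heat shock, cell death or ribosome biogenesis gene was called by edgeR. At an unadjusted p under 0.05, 8 of 16 heat shock genes, 10 of 21 cell death genes and 15 of 24 ribosome biogenesis genes were lower and none was higher, beside 10.2% of all genes. All 24 ribosome biogenesis genes had a negative value (median -0.44). The nucleolar GTPase gene Gnl3, first in this list by p, was at 33.6, 49.8, 56.6 and 78.2 against 32.1, 30.3, 28.4 and 28.8 CPM (-0.87 ± 0.24, adjusted p = 0.0829) and did not overlap. DESeq2 called 5 heat shock, 3 cell death, 3 ribosome biogenesis and 2 glycolysis and hypoxia genes lower and none of these lists higher. Over all 34327 genes given a p-value it called 539 lower and 406 higher. The cell death median of -0.35 was -0.21 without fl/fl IRI 3. Proteasome genes (-0.21), glycolysis and hypoxia genes (0.0524) and cell cycle genes (0.0864) had medians nearer to 0 and no edgeR call, with 4, 2 and 0 lower at an unadjusted p under 0.05 and 1 higher, a cell cycle gene, the G1 cyclin Ccnd1 (1.14 ± 0.43, adjusted p = 0.179). The glycolysis and cell cycle medians changed sign without fl/fl IRI 4, to -0.0236 and -0.0102, among other libraries.

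Cytokine and NF-kappaB genes were lower where they were called. Cxcl1, a neutrophil-attracting chemokine, was at 7.32, 25.0, 35.2 and 63.4 CPM in fl/fl IRI 1 to 4 and 3.04, 4.50, 2.27 and 2.36 CPM in iGKO IRI 1 to 4. Its groups did not overlap, and it fell by 3.42 ± 0.58 (adjusted p = 0.0325), with sham means of 1.72 ± 0.774 CPM (fl/fl) and 2.25 ± 1.48 CPM (iGKO). Il34, a ligand of the CSF1 receptor made by tubule cells, was at 41.1, 103, 114 and 191 CPM in fl/fl IRI 1 to 4 and 25.1, 21.3, 9.54 and 28.9 CPM in iGKO IRI 1 to 4 and fell by 2.41 ± 0.41 (adjusted p = 0.0325). These were the 2 called members among 17 tested cytokines and chemokines, whose median of -0.69 ranged over -1.11 to -0.39 with 1 library left out. Cxcl2, another neutrophil chemokine, just missed the threshold (-2.37 ± 0.55, adjusted p = 0.0516) without overlap. Ccl2, the monocyte chemokine, was at 3.28, 6.42, 3.47 and 2.40 against 7.72, 5.06, 7.90 and 4.32 CPM and its groups overlapped (0.68 ± 0.61, adjusted p = 0.560).

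Of 22 tested genes of NF-kappaB and STAT3 feedback 5 fell: Nfkbiz, Rela, Birc3, Bcl3 and Stat3 (median -0.66). Nfkbiz, an inducible nuclear IkappaB protein, was at 48.2, 80.9, 107 and 152 CPM in fl/fl IRI 1 to 4 and 38.4, 33.6, 30.1 and 35.1 CPM in iGKO IRI 1 to 4, with no overlap, and fell by 1.50 ± 0.26 (adjusted p = 0.0325). Rela, the transcriptionally active p65 subunit, fell by 1.10 ± 0.25, from 48.6, 70.3, 94.7 and 154 to 40.2, 43.9, 42.7 and 45.1 CPM, and its log2 value was -0.73 without fl/fl IRI 4. Birc3, an inhibitor of apoptosis, fell by 1.20 ± 0.26 and Bcl3, an atypical IkappaB protein, fell by 1.29 ± 0.26.

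**Figure D3:**
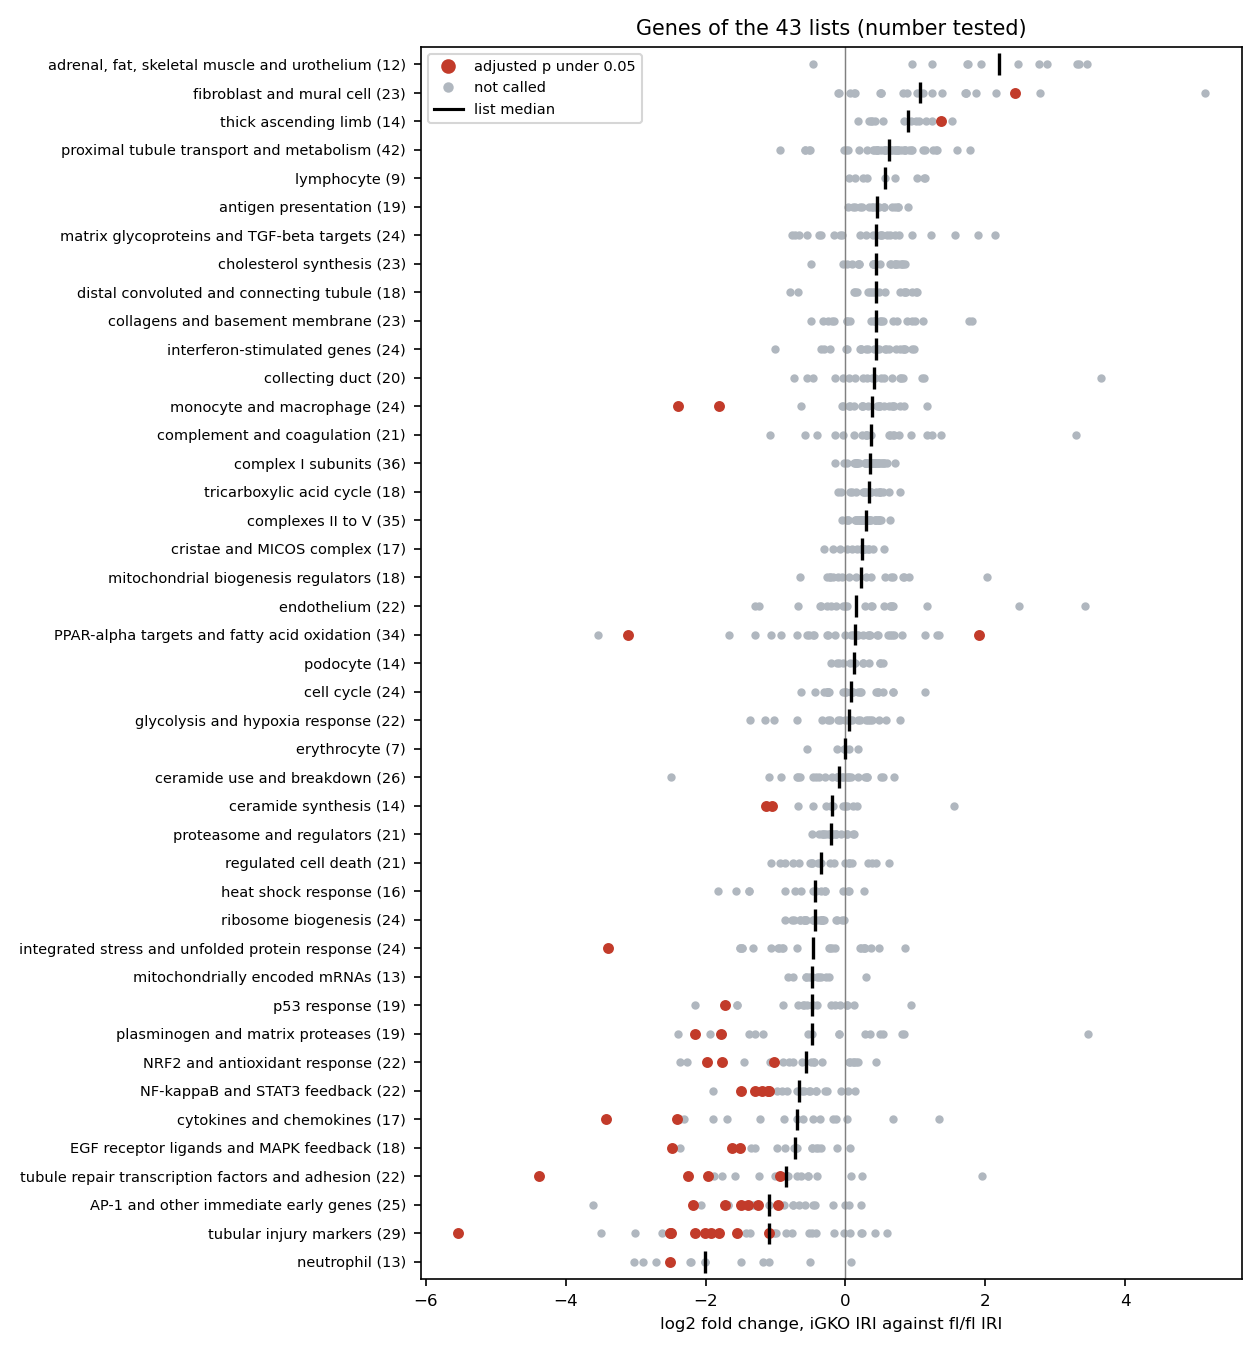
Log2 fold change of iGKO IRI against fl/fl IRI (x axis) for every tested gene of the 43 lists (y axis, number tested in parentheses), ordered by median. Red points are called genes, gray points are not called and black bars are list medians. Called genes cluster left of 0 in the injury, repair, AP-1, MAPK, NF-kappaB and NRF2 rows, and single called genes lie right of 0 in the thick ascending limb, fibroblast and PPAR-alpha rows.

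AP-1, NF-kappaB and the ATF4 factor of the integrated stress response bind short sequence motifs, and genes of their lists were among the called lower genes. The 250 bases before the start sites of called genes were searched for short motifs on both strands. RefSeq promoters of the mouse build GRCm38.p6 matched 11716 of 17962 tested symbols, 85 of the 121 lower genes and 25 of the 32 higher genes. The sequences of 5 called lower genes with a match are shown 5′ to 3′ on the gene's strand, each ending at the base before the annotated start, with the match in capitals. Plaur, Srxn1 and Cldn4 hold the AP-1 letters TGANTCA, read on either strand. Lcn2 holds the letters GGGNNNTCC, a short form searched here for NF-kappaB, and Chac1 the amino acid response letters TGATGNAA.
Plaur (chr7:24462233-24462482, plus strand): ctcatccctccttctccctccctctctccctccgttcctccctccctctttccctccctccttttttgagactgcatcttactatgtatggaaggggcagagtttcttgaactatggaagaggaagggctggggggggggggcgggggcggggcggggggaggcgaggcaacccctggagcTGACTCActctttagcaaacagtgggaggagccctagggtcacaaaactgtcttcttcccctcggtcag
Srxn1 (chr2:152105274-152105523, plus strand): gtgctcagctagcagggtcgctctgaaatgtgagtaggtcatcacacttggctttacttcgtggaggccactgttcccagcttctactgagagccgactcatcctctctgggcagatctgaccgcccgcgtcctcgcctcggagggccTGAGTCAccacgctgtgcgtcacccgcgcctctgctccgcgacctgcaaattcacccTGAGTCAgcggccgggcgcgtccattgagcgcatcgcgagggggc
Cldn4 (chr5:134946935-134947184, minus strand): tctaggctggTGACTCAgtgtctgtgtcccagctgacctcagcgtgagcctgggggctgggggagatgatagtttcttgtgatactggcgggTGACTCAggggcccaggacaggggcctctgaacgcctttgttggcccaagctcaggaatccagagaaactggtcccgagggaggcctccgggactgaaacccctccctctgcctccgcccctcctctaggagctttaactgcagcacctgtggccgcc
Lcn2 (chr2:32387740-32387989, minus strand): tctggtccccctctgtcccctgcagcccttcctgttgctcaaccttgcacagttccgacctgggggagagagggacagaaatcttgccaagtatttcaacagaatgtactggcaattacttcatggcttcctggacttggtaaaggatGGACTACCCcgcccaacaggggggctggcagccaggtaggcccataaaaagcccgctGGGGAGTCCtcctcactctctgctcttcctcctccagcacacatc
Chac1 (chr2:119350992-119351241, plus strand): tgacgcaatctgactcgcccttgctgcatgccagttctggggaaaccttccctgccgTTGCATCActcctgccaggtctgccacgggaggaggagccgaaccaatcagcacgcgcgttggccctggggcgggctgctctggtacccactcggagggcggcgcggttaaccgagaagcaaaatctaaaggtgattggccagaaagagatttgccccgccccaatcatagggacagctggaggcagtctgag

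The AP-1 letters were in 9.41% of the 85 lower promoters, 8.0% of the 25 higher promoters and 4.62% of all 11716. The NF-kappaB letters were in 30.6%, 16.0% and 19.3%, and the amino acid response letters in 3.53%, 0% and 1.98%. The NF-kappaB letters hold a fixed spacing between GGG and TCC, so sites of this factor with another spacing are not counted. Among the other motifs searched, the C/EBP letters TTGCNNAA were in 12.9%, 0% and 7.67%, the antioxidant response letters TGACNNNGC in 14.1%, 4.0% and 12.0%, and the cyclic AMP response letters TGACGTCA in 4.71%, 0% and 2.59%. STAT letters TTCNNNGAA were in 5.88%, 0% and 6.17% and TATAAA in 7.06%, 0% and 6.89%. The metal response letters TGCNCNC were in 48.2%, 76.0% and 52.1%, and the PPAR response element (a direct repeat) in 0%, 0% and 0.0512%. The AP-1 and antioxidant letters overlap in TGAC, and the AP-1 and cyclic AMP letters share their ends. A match is a description of these letters and not a site of binding. No difference between these shares was tested.

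Tubule transport and metabolism genes mostly had positive log2 values in the knockout, and 1 gene of the 4 nephron segment lists was called. In the proximal tubule list 36 of 42 tested genes had a positive log2 value (median 0.62) and none was called by edgeR. At an unadjusted p under 0.05, 17 were higher and 2 lower, beside 8.94% and 10.2% of all genes. Slc34a1, the sodium-phosphate cotransporter, was at 3760.1, 1450.5, 729 and 2038 CPM in fl/fl IRI 1 to 4 and 3225, 2741, 3493 and 3817 CPM in iGKO IRI 1 to 4. fl/fl IRI 1 was above 3 knockout libraries and the other controls were below all 4, and the log2 value was 0.73 ± 0.33 (SE) with an adjusted p of 0.240. Sham kidneys held 5087 ± 338 CPM (fl/fl) and 4554 ± 653 CPM (iGKO). The endocytic receptor gene Lrp2 (0.83 ± 0.30, adjusted p = 0.155) and the glucose transporter gene Slc5a2 (0.67 ± 0.30, adjusted p = 0.232) missed the threshold too, with fl/fl IRI 1 at 6058 and 563 CPM within the knockout ranges. Without fl/fl IRI 1, 21 of 42 proximal tubule genes were called higher, 0 lower, and the median was 1.01. That setting is selected on the outcome, and in it 1282 of all 18392 tested genes were called higher and 1213 lower.

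The thick ascending limb had the highest median of the nephron segments, 0.89, with positive values in all 14 tested genes and 1 called. Cldn19, a claudin for magnesium and calcium reabsorption, was at 14.3, 6.63, 8.92 and 6.51 CPM in fl/fl IRI 1 to 4 and 12.8, 23.4, 27.6 and 29.5 CPM in iGKO IRI 1 to 4. It rose by 1.36 ± 0.29 (adjusted p = 0.0426), with fl/fl IRI 1 above iGKO IRI 1 and the other 3 libraries of each group apart. Slc12a1, the sodium-potassium-chloride cotransporter, was at 233, 44.9, 98.4 and 129.6 CPM in fl/fl IRI 1 to 4 and 171, 485, 429 and 364 CPM in iGKO IRI 1 to 4 and missed the threshold (1.52 ± 0.39, adjusted p = 0.0657), again with fl/fl IRI 1 above iGKO IRI 1. Umod, uromodulin, was at 1723, 675, 1537 and 1549.6 against 1060.0, 2155, 2024 and 2717 CPM (0.54 ± 0.28, adjusted p = 0.310). Without fl/fl IRI 1, 9 of the 14 genes were called higher, beside 1282 of all 18392 genes in that setting. It is selected on the outcome.

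Distal segments had no gene called by edgeR, while DESeq2 called 3 genes of the distal convoluted and connecting tubule and 3 of the collecting duct higher and none lower. Over all 34327 genes given a p-value DESeq2 called 406 higher and 539 lower. The median was 0.44 over 18 tested genes of the distal convoluted and connecting tubule and 0.40 over 20 of the collecting duct. At an unadjusted p under 0.05, 7 and 7 were higher and 1 and 3 lower, beside 8.94% and 10.2% of all genes. Kl, the FGF23 co-receptor klotho, was at 655, 263, 155 and 208 against 535, 559.7, 759 and 761 CPM (1.03 ± 0.33, adjusted p = 0.119), fl/fl IRI 1 lying within the knockout range. Slc12a3, the thiazide-sensitive cotransporter, was at 1866, 1269, 867 and 807 against 1156, 1277, 1549 and 1237 CPM (0.12 ± 0.27, adjusted p = 0.844). Slc8a1, the basolateral sodium-calcium exchanger, did not overlap, at 310.0, 225, 178 and 176 against 347, 326, 588 and 368 CPM (0.87 ± 0.27, adjusted p = 0.113). Aqp4, a collecting duct water channel, was at 1.16, 0.608, 2.18 and 1.33 against 0.445, 20.5, 25.0 and 21.2 CPM (3.66 ± 0.97, adjusted p = 0.0733), so 3 knockout libraries were high and iGKO IRI 1 was below every control.

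Of 34 tested PPAR-alpha targets and fatty acid oxidation genes 1 rose and 1 fell. PPAR-alpha is the nuclear receptor that turns on fatty acid oxidation. Cyp4a14, a fatty acid hydroxylase gene it induces, was at 409, 280.0, 117 and 286 CPM in fl/fl IRI 1 to 4 and 1285, 705, 1106 and 1005 CPM in iGKO IRI 1 to 4. All knockout libraries were above all controls, the rise was 1.91 ± 0.41 (adjusted p = 0.0453), and sham kidneys held 768 ± 426 CPM (fl/fl) and 1175 ± 394 CPM (iGKO). Reads of Cyp4a14 may be shared with close paralogs of the family. Plin2, a coat protein of lipid droplets, fell by 3.11 ± 0.67 (adjusted p = 0.0437), with 183, 1637, 454 and 4701 CPM in fl/fl IRI 1 to 4 and 249, 180.2, 241 and 135 CPM in iGKO IRI 1 to 4. fl/fl IRI 2 and 4 set the control mean, and fl/fl IRI 1 lay within the knockout range. The log2 value of Plin2 was -1.91 without fl/fl IRI 4. This list had a median of 0.14, which was -0.0367 without fl/fl IRI 3. Among the genes that missed the threshold, Fabp3, a fatty acid carrier, (1.32 ± 0.31, adjusted p = 0.0527) and Acox2, a peroxisomal oxidase, (1.14 ± 0.33, adjusted p = 0.0941) did not overlap between the groups. Ppara itself was at 86.3, 102, 50.8 and 91.2 against 94.1, 87.4, 96.3 and 72.8 CPM (0.09 ± 0.17, adjusted p = 0.818).

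Nuclear genes for mitochondrial proteins had small positive values. Ppargc1a, the coactivator PGC-1alpha of mitochondrial biogenesis, was at 79.6, 63.8, 43.7 and 46.5 CPM in fl/fl IRI 1 to 4 and 110.0, 100.5, 118 and 83.7 CPM in iGKO IRI 1 to 4. Every knockout library was above every control, and the log2 value of 0.82 ± 0.21 (SE) had an adjusted p of 0.0633. 34 of 36 complex I subunits (median 0.35), 34 of 35 subunits of complexes II to V (0.29), 16 of 18 tricarboxylic acid cycle genes (0.33) and 14 of 17 cristae genes (0.24) were positive. None was called by edgeR, and 13, 5, 8 and 3 were higher at an unadjusted p under 0.05, with none lower. Over all genes the shares at that level were 8.94% higher and 10.2% lower. The complex I subunit gene Ndufab1 was at 63.0, 61.7, 49.2 and 40.4 against 73.6, 69.4, 84.5 and 80.5 CPM (0.52 ± 0.19, adjusted p = 0.155), and the groups did not overlap. Immt, the core MICOS subunit of the cristae junction, was at 260.4, 239, 222 and 247 against 245, 239, 272 and 281 CPM (0.10 ± 0.14, adjusted p = 0.735). The 13 messenger RNAs encoded in mitochondrial DNA had a median of -0.47, 12 of them negative, with 0 at an unadjusted p under 0.05. Cholesterol synthesis genes had a median of 0.44, and the regulators of mitochondrial biogenesis one of 0.23, with no edgeR call in either list and 7 and 5 higher and 0 and 1 lower at an unadjusted p under 0.05. DESeq2 called 0 complex I, 0 complex II to V, 4 proximal tubule, 1 tricarboxylic acid cycle, 1 cristae and 0 cholesterol genes higher, and 2 biogenesis regulators higher and 1 lower. Over all 34327 genes given a p-value it called 406 higher and 539 lower. With 1 library left out the medians ranged over 0.18 to 0.41 for complexes II to V, 0.14 to 0.32 for cristae genes, 0.29 to 0.64 for cholesterol synthesis, 0.11 to 0.39 for biogenesis regulators and -0.61 to -0.29 for the mitochondrially encoded messenger RNAs.

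**Figure D4:**
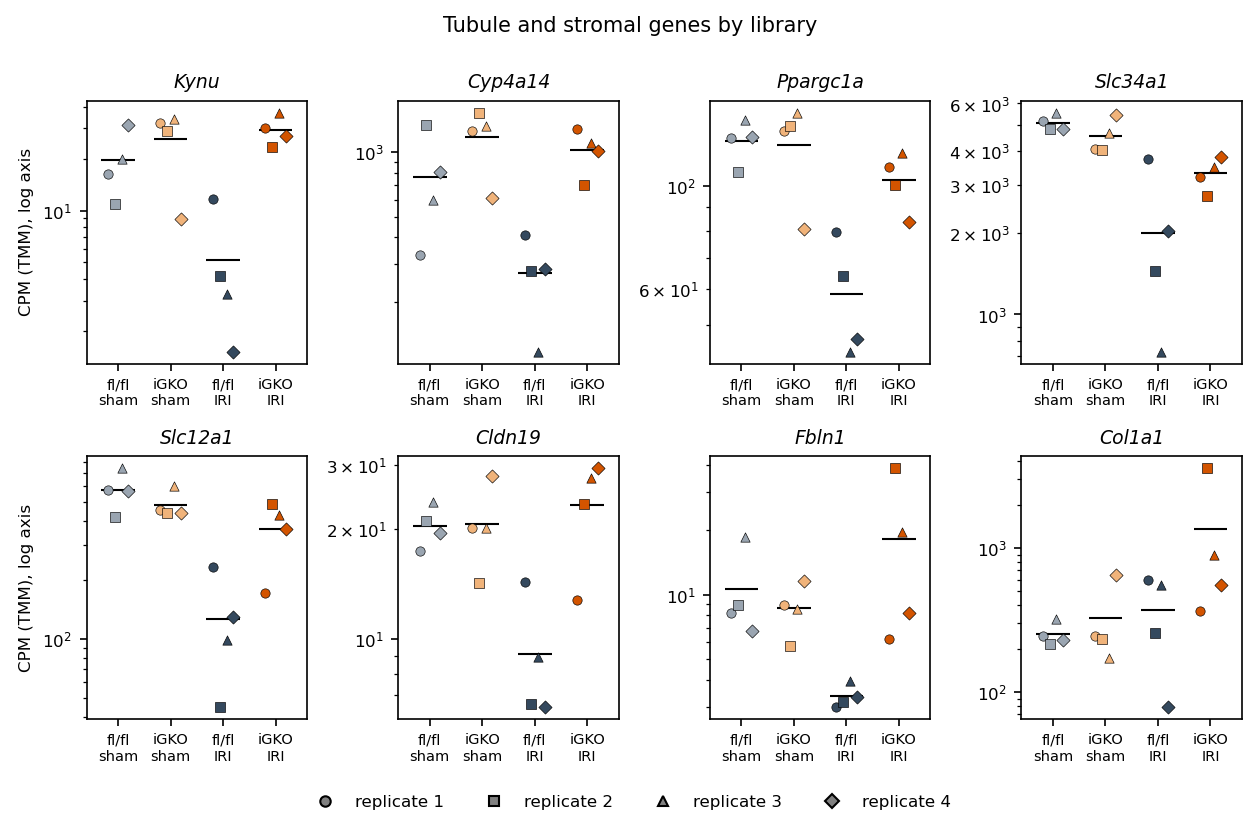
Levels of 8 tubule, metabolic and stromal genes in each of the 16 libraries (y axis, CPM after TMM scaling, log axis), by genotype and operation (x axis). Symbols mark the replicate number and horizontal lines are the group means of 4. Kynu, Cyp4a14, Ppargc1a and Fbln1 do not overlap between the IRI groups, while fl/fl IRI 1 lies among the knockouts in Slc34a1, Slc12a1 and Cldn19 and iGKO IRI 2 is the highest library in Fbln1 and Col1a1.

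Stromal genes were higher in some knockout libraries and not in others. Fbln1, the matrix protein fibulin 1, was the 1 called gene of 23 fibroblast and mural cell markers, with 3.01, 3.18, 3.95 and 3.35 CPM in fl/fl IRI 1 to 4 and 6.24, 38.7, 19.5 and 8.18 CPM in iGKO IRI 1 to 4. The groups did not overlap, iGKO IRI 2 was the highest library, and the rise was 2.43 ± 0.48 (adjusted p = 0.0392). Without iGKO IRI 2 the log2 value was 1.75 with an adjusted p of 0.111. Of the markers 21 had a positive value and 13 were higher at an unadjusted p under 0.05, beside 8.94% of all genes. Their median of 1.06 was 0.60 without iGKO IRI 2 and 0.78 without iGKO IRI 3. Lum, the fibroblast proteoglycan lumican, was at 0.957, 0.676, 0.613 and 0.190 against 1.19, 79.3, 5.31 and 0.473 CPM (5.14 ± 1.40, adjusted p = 0.0817), and without iGKO IRI 2 its log2 value was 1.93. Col1a1, a chain of type I collagen, was at 599, 259, 554 and 79.0 against 364, 3598, 900.1 and 555 CPM (1.86 ± 0.67, adjusted p = 0.160), again highest in iGKO IRI 2, without which the value was 0.70. Pdgfrb, the PDGF receptor of pericytes and fibroblasts, was at 96.9, 158, 195 and 169 against 184, 183, 127 and 82.5 CPM (-0.10 ± 0.24, adjusted p = 0.840).

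Markers of tissues next to the cortex had their highest summed level in iGKO IRI 3. Of 21 markers of adrenal gland, fat, skeletal muscle and urothelium, 12 passed the filter on low counts and 11 of those had a positive value. Their median was 2.20, and -0.11 without iGKO IRI 3. Their summed level ranged from 63.2 to 155 CPM in fl/fl IRI and from 34.8 to 1128 CPM in iGKO IRI. Fat genes held the most reads of the list in iGKO IRI 3, with 6691 for Fabp4, 4487 for Ucp1 and 2782 for Plin1. The other IRI libraries had 345 to 1149, 0 to 404 and 2 to 332 reads of these genes, and the 404 reads of Ucp1 were in fl/fl IRI 1. Upk1a, a plaque protein of urothelium, had 305 reads in iGKO IRI 3. It was at 0.273, 0.744, 0.613 and 1.39 against 0.594, 1.36, 19.3 and 1.35 CPM, high in iGKO IRI 3 only. Upk3b, also found in mesothelium, was at 0.684, 0, 1.64 and 0.126 against 0.520, 7.40, 5.05 and 0.473 CPM, highest in iGKO IRI 2 and 3. The steroid enzyme gene Cyp11b1 and the fast myosin gene Myh4 had 0 reads in all 8 libraries, and the adrenal enzyme gene Hsd3b1 had 1. The part of these tissues in the stromal values and in those of the fatty acid genes was not tested.

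Collagens and basement membrane genes had a median of 0.44 over 23 tested and matrix glycoproteins one of 0.44 over 24, and the latter turned to -0.0885 without iGKO IRI 2. No gene of these lists was called by edgeR, while DESeq2 called 2 and 3 higher and none lower, with 7 and 7 higher and 1 and 4 lower at an unadjusted p under 0.05. Nid2, a basement membrane nidogen, was at 43.9, 33.3, 44.9 and 28.5 against 59.0, 49.0, 54.5 and 56.2 CPM (0.54 ± 0.15, adjusted p = 0.0875), without overlap. Endothelial markers had a median of 0.15 over 22 tested (0.0760 to 0.24 with 1 library left out) and no edgeR call, while DESeq2 called 2 higher and 1 lower, and 10 were higher and 3 lower at an unadjusted p under 0.05. Kdr, the VEGF receptor, was at 81.9, 71.2, 62.7 and 104 against 89.0, 90.8, 118 and 114 CPM (0.36 ± 0.15, adjusted p = 0.204). Vwf, von Willebrand factor of larger vessels, was at 2.87, 3.38, 4.16 and 2.28 against 2.60, 27.2, 33.0 and 8.11 CPM (2.48 ± 0.74, adjusted p = 0.101), highest in iGKO IRI 2 and 3. Podocyte markers had a median of 0.13 (0.0435 to 0.23 with 1 library left out), with 1 higher and 0 lower of 14 at an unadjusted p under 0.05. Beside the counts of these lists, 8.94% of all genes were higher and 10.2% lower at that level. DESeq2 called 406 higher and 539 lower over all 34327 genes given a p-value.

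Immune markers did not move in 1 direction. Neutrophil genes had the lowest median of all lists, -2.01, with 12 of 13 tested genes negative and 1 called. At an unadjusted p under 0.05, 9 were lower, beside 10.2% of all genes. The list median was -1.29 without fl/fl IRI 3. The called gene was Lcn2, which injured tubule also makes. S100a9, a calcium-binding protein of neutrophils and monocytes, was at 4.58, 24.6, 60.9 and 10.7 CPM in fl/fl IRI 1 to 4 and 8.46, 7.46, 4.23 and 1.55 CPM in iGKO IRI 1 to 4. fl/fl IRI 2 and 3 were high, fl/fl IRI 1 was as low as the knockouts, and the log2 value of -2.21 ± 0.74 (SE) had an adjusted p of 0.134. Retnlg, a neutrophil resistin-like gene, was at 0.342, 5.61, 15.9 and 4.30 against 0.742, 1.79, 0.505 and 0.135 CPM (-3.02 ± 0.82, adjusted p = 0.0804). The neutrophil genes Ly6g, Ngp, Camp, Elane and Mpo did not pass the filter, and Elane had 2 reads over the 8 IRI libraries. The summed level of the 13 tested genes was 92.2 to 706 CPM in fl/fl IRI and 46.7 to 107 CPM in iGKO IRI, Lcn2 included. Without fl/fl IRI 1, 8 of 13 genes were called lower, beside 1213 of all 18392 genes in that setting. It is selected on the outcome.

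Monocyte and macrophage genes were split. Cd14, the co-receptor for bacterial lipopolysaccharide, was at 49.8, 69.97, 53.6 and 276 CPM in fl/fl IRI 1 to 4 and 32.2, 24.4, 13.5 and 15.6 CPM in iGKO IRI 1 to 4. It fell by 2.39 ± 0.50 (adjusted p = 0.0426), with no overlap and with fl/fl IRI 4 far above the other controls, and without fl/fl IRI 4 its log2 value was -1.43. Cd14 and Spp1, both also made by injured tubule, were the 2 called genes of 24 tested, yet 19 genes had a positive value and the median was 0.38. With 1 library left out the median ranged from 0.12 without fl/fl IRI 4 to 0.88 without fl/fl IRI 1. In the latter setting, selected on the outcome, 6 genes were called higher and 2 lower, beside 1282 and 1213 of all 18392 genes. C1qa, a complement subunit made by resident macrophages, was at 42.0, 13.0, 16.7 and 9.80 against 33.3, 48.5, 23.3 and 24.9 CPM (0.67 ± 0.36, adjusted p = 0.318). Csf1r, the CSF1 receptor, was at 93.1, 37.7, 35.3 and 25.2 against 60.6, 92.8, 58.3 and 54.2 CPM (0.48 ± 0.33, adjusted p = 0.448). fl/fl IRI 1 was above 3 knockout libraries in C1qa and above all 4 in Csf1r, and fl/fl IRI 2 to 4 were below all 4 in both. Mrc1, the mannose receptor, was at 18.9, 15.5, 10.9 and 10.0 against 22.1, 59.0, 31.8 and 11.7 CPM (1.17 ± 0.48, adjusted p = 0.204), highest in iGKO IRI 2.

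All 19 tested antigen presentation genes had a positive value (median 0.45), as had all 9 tested lymphocyte genes (0.56) and 20 of 24 interferon-stimulated genes (0.43). None was called by edgeR, while DESeq2 called 3 interferon-stimulated genes higher. Over all 34327 genes given a p-value DESeq2 called 406 higher and 539 lower. With 1 library left out the medians ranged over 0.29 to 0.95 for antigen presentation and 0.24 to 1.14 for lymphocyte genes. Both were highest without fl/fl IRI 1. In that setting, selected on the outcome, 7 antigen presentation genes and 1 lymphocyte gene were called higher, beside 1282 of all 18392 genes. At an unadjusted p under 0.05, 2, 1 and 9 of the genes of the 3 lists were higher and 0, 0 and 1 lower, beside 8.94% and 10.2% of all genes. Ifit3, an interferon-induced antiviral gene, was at 5.95, 7.57, 6.95 and 6.38 CPM in fl/fl IRI 1 to 4 and 17.1, 8.20, 16.2 and 11.7 CPM in iGKO IRI 1 to 4 (0.98 ± 0.24, adjusted p = 0.0603). Its groups did not overlap, and Usp18, which restrains interferon signaling, did not overlap either (0.85 ± 0.22, adjusted p = 0.0734). Of the 18 lymphocyte markers 9 failed the filter on low counts, the B cell markers Cd79a and Ms4a1 among them. Gata3, which is also in the collecting duct list, had 2588 reads over the 8 IRI libraries. The other tested lymphocyte genes had 33 to 242 reads, and Il7r had 113 of its 242 in iGKO IRI 2. C3, the central complement protein, was at 415, 372, 395 and 221 CPM in fl/fl IRI 1 to 4 and 1068, 1019.6, 532 and 529 CPM in iGKO IRI 1 to 4. Every knockout library was above every control, and the value of 1.17 ± 0.36 (SE) had an adjusted p of 0.115. The complement and coagulation list had 16 positive of 21 tested genes and a median of 0.36 (0.26 to 0.56 with 1 library left out). It had no edgeR call and 2 higher and 1 lower calls by DESeq2. At an unadjusted p under 0.05, 3 were higher and 2 lower, beside the same shares of all genes. Erythrocyte markers had a median of -0.0102 over 7 tested genes, and of 0.17 without fl/fl IRI 1.

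**Figure D5:**
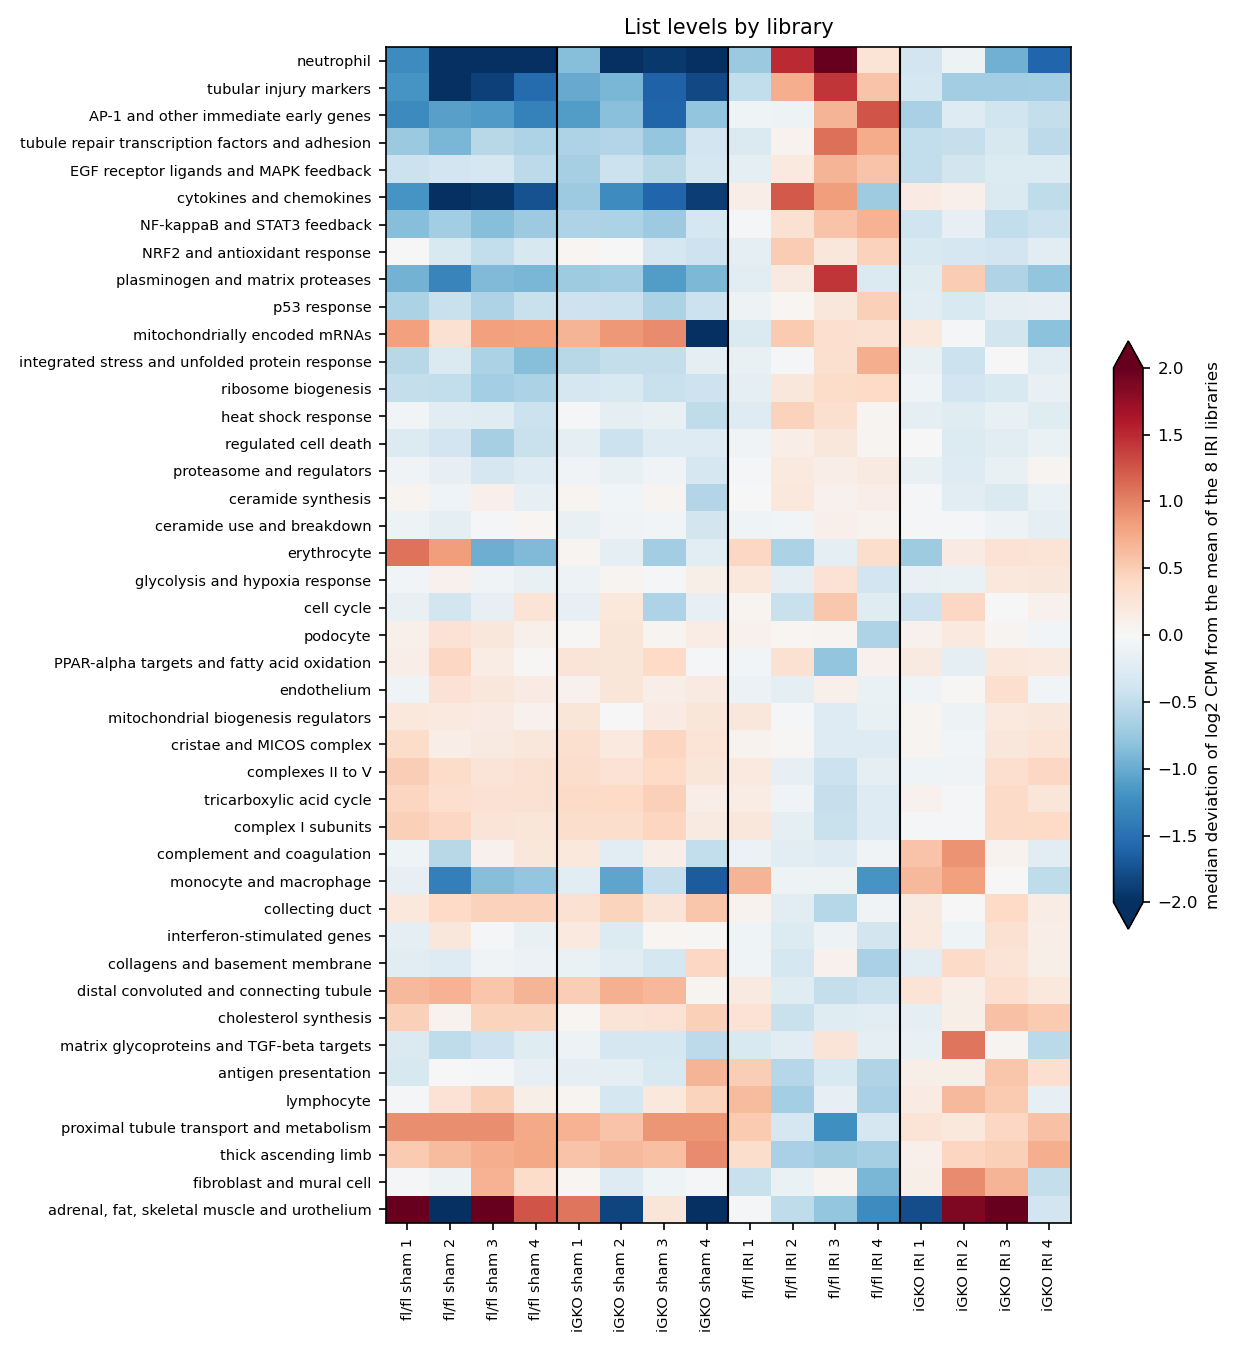
Median deviation of log2 CPM from the mean of the 8 IRI libraries (color) for the tested genes of each of the 43 lists (rows) in each library (columns), with black lines between groups. Values beyond 2 in size share the end color. The injury and neutrophil rows are highest in fl/fl IRI 2 to 4, fl/fl IRI 1 lies within the iGKO IRI range in the injury row, and the bottom row is high in iGKO IRI 2 and 3 among the IRI libraries.

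Of the 153 called genes 83 lower and 29 higher ones belonged to no list. Among the 15 largest falls were Prrg4, a transmembrane Gla protein, at 9.98, 37.9, 123 and 221 against 8.98, 9.50, 8.47 and 8.92 CPM (-3.45 ± 0.63, adjusted p = 0.0340), Lrp8, a receptor of the LDL receptor family, at 7.04, 34.7, 29.4 and 74.0 against 5.42, 6.11, 4.68 and 6.82 CPM (-2.66 ± 0.48, adjusted p = 0.0325), and Clcf1, a cytokine of the interleukin 6 family, at 16.8, 68.6, 77.7 and 153 against 16.3, 14.7, 11.9 and 13.7 CPM (-2.48 ± 0.45, adjusted p = 0.0340). In each of these the lowest control was fl/fl IRI 1, just above the knockouts, and the highest was fl/fl IRI 4. Tmem252 was at 56.1, 82.8, 116 and 913 against 16.1, 41.0, 22.6 and 21.7 CPM (-3.52 ± 0.69, adjusted p = 0.0392), with fl/fl IRI 4 far above the other controls and a log2 value of -1.74 without it. Inhbb, the beta B subunit of inhibins and activins, fell by 2.47 ± 0.53, from 19.7, 18.1, 57.4 and 130.2 to 6.31, 12.3, 7.65 and 14.3 CPM, and its log2 value was -1.64 without fl/fl IRI 4.

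Sprr2g, a small proline-rich protein of stressed epithelium whose reads may be shared with its family, fell by 4.45 ± 0.72, from 1.98, 5.54, 21.7 and 24.5 to 0.965, 0.247, 0.569 and 0.676 CPM. Ctxn3 fell by 2.91 ± 0.60, from 3.28, 25.7, 9.67 and 27.4 to 3.27, 1.67, 0.758 and 3.11 CPM, with fl/fl IRI 1 barely above iGKO IRI 1. The fucosyltransferase gene Fut2 and Lpo, lactoperoxidase, were low: Fut2 fell by 3.68 ± 0.76 and Lpo fell by 2.29 ± 0.51, from 184 and 181 reads over the 4 control libraries to 14 and 36 over the 4 knockouts.

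The 15 largest rises included Kynu and Gamt, enzymes of tryptophan and creatine metabolism. Kynu, kynureninase, was at 11.7, 4.19, 3.27 and 1.52 CPM in fl/fl IRI 1 to 4 and 30.1, 23.4, 36.8 and 27.0 CPM in iGKO IRI 1 to 4. The knockouts were above all controls, and sham kidneys held 19.6 ± 8.69 CPM (fl/fl) and 26.0 ± 11.6 CPM (iGKO). The rise was 2.51 ± 0.52 (adjusted p = 0.0398). Gamt, guanidinoacetate methyltransferase of creatine synthesis, rose by 1.44 ± 0.29, from 6.84, 3.11, 2.66 and 4.36 to 12.4, 8.82, 12.6 and 12.4 CPM. Dmpk, a protein kinase, rose by 1.43 ± 0.30, from 15.2, 11.6, 11.5 and 5.25 to 26.1, 30.7, 43.3 and 17.4 CPM.

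Genes of the matrix and cell surface were also among the largest rises. Tenm2, a teneurin adhesion protein, was at 0.820, 0.203, 0.409 and 0.316 CPM in fl/fl IRI 1 to 4 and 1.48, 1.91, 2.46 and 2.03 CPM in iGKO IRI 1 to 4, with no overlap, and rose by 2.16 ± 0.38 (adjusted p = 0.0325). C1qtnf2, a secreted C1q and TNF-related protein, was at 0.957, 1.08, 0.818 and 0.822 CPM in fl/fl IRI 1 to 4 and 3.64, 4.63, 3.48 and 1.82 CPM in iGKO IRI 1 to 4 and rose by 1.88 ± 0.33 (adjusted p = 0.0325). The means in iGKO sham were 2.01 and 4.66 CPM. Cpz, carboxypeptidase Z, rose by 3.99 ± 0.86, from 0.0684, 0, 0.273 and 0.316 to 1.56, 7.90, 1.01 and 0.541 CPM, and Col8a2, a collagen VIII chain, by 3.06 ± 0.67, from 0.410, 0.406, 0.545 and 0.126 to 1.78, 7.83, 2.02 and 0.878 CPM. iGKO IRI 2, the library with the most fibroblast RNA, was the highest in both, and without it their log2 values were 2.58 and 2.06 with adjusted p-values of 0.131 and 0.131. Over the 32 higher genes iGKO IRI 2 was the highest library in 13 and iGKO IRI 3 in 11.

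Axin2, a target and inhibitor of Wnt signaling, rose by 2.19 ± 0.48, from 1.16, 1.01, 0.954 and 0.506 to 3.12, 5.30, 6.70 and 1.55 CPM. Tril, an accessory protein of Toll-like receptors, rose by 1.46 ± 0.32, from 14.4, 6.69, 8.52 and 3.79 to 22.5, 24.7, 28.9 and 15.7 CPM, and Fam107a by 1.81 ± 0.39, from 11.1, 5.14, 4.50 and 5.25 to 11.4, 26.4, 27.5 and 25.9 CPM, where fl/fl IRI 1 and iGKO IRI 1 nearly touched. Ptgds, a prostaglandin D synthase, rose by 2.07 ± 0.40, Rapsn, the acetylcholine receptor clustering protein rapsyn, by 1.89 ± 0.37 and Lrrc66 by 1.40 ± 0.29. These 3 were low in all libraries, with at most 5.74 CPM after IRI.

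The same contrast in sham kidneys gave no called gene with edgeR or DESeq2. With edgeR, 107 genes were higher (0.595%) and 103 lower (0.573%) at an unadjusted p under 0.05, and the smallest adjusted p was 0.9999. The list medians after sham were 0.44 for tubular injury, 0.28 for immediate early genes, -0.0911 for proximal tubule and -0.14 for fibroblast and mural cell genes, beside 0.012 over all tested genes. Whether the genotype difference after IRI itself differed from that after sham was tested by the interaction term. edgeR called 0 genes, with 1170 lower (6.51%) and 863 higher (4.8%) at an unadjusted p under 0.05 and a smallest adjusted p of 0.2441, and DESeq2 called 84 lower and 29 higher. No gene's genotype difference after IRI was shown to differ from that after sham in the edgeR model.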

How the data were processed

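RNA was sequenced by the submitters from total RNA of kidney cortex after depletion of ribosomal RNA, in stranded libraries. The values are raw read counts per Ensembl gene that the authors deposited for 56980 identifiers in 16 libraries. STAR 2.7.9a, cutadapt 1.16, featureCounts 1.6.3 and DESeq2 1.36.0 and the build GRCm39 are named, per the submitters' processing notes; the strand setting is not given in the sources used here. Symbols came from a GENCODE table by identifier (52073 matched; the other 4907, with 0.84% to 1.77% of each library's counts, were tested but not named).

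filterByExpr kept 17972 genes. TMM scaling and edgeR 4.0.16 quasi-likelihood tests (R 4.3.3) were fitted to all 16 libraries with 1 coefficient per group, so all 4 groups share the spread; tests were two-sided with Benjamini-Hochberg adjustment over all genes tested and a threshold of 0.05. An SE is the log2 value divided by the root of the F statistic. Total counts were 12704273 to 18816343 per library. No pair of libraries was identical. The procedure was tested on simulated data in which a gene had the same spread in all groups. Such data cannot show how an unequal spread of sham and IRI groups affects the calls. Named genes were Degs1, the 15 largest rises and falls among called genes with a mean of at least 1 CPM after IRI and no overlap, up to 4 members of each list by smallest p, and 30 fixed anchor genes; further called list members are named beyond this rule, chosen after their values were seen. The 43 lists hold 939 genes, 895 of them tested; a few of these are not reported here. The comparison, lists and genes were chosen with earlier results of these data known. Alternatives were DESeq2 size factors, DESeq2 1.42.0, no filter, the compared groups alone, a replicate block and leaving out each library. Leaving out fl/fl IRI 1 with iGKO sham 4, and with the sham libraries, was chosen after seeing the data. Promoters were read from a RefSeq table of GRCm38.p6 and no other coordinates were used.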

Additional observations from a re-analysis of the deposited data

Results flagged for a closer look

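In each group of 4 after IRI, the library at either end was compared with its nearest neighbor as a share of the group's range (Dixon's criterion at the 95% level). Of 206 groups examined 20 passed. Chance alone passes about 1 in 20 groups, which is 5%, so single entries carry little weight; the libraries in which they fell were uneven, with 7 in iGKO IRI 2 and 4 in fl/fl IRI 4.

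iGKO IRI 2 held the highest knockout value of the stromal genes Lum (79.3 CPM, others 0.473 to 5.31 CPM), Col1a1 (3598 CPM, others 364 to 900 CPM), Cpz (7.90 CPM, others 0.541 to 1.56 CPM) and Col8a2 (7.83 CPM, others 0.878 to 2.02 CPM), and of Csf1r (92.8 CPM) and Sphk1 (15.3 CPM). Its Gamt value of 8.82 CPM was the lowest of the knockouts. iGKO IRI 3 held the highest knockout value of Upk1a (19.3 CPM, others 0.594 to 1.36 CPM), Slc8a1 (588 CPM, others 326 to 368 CPM) and Cdkn1a (36.9 CPM, others 23.6 to 25.5 CPM).

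fl/fl IRI 4 held the highest control value of Tmem252 (913 CPM, others 56.1 to 116 CPM), Cd14 (276 CPM, others 49.8 to 69.97 CPM), Btg2 (195 CPM, others 39.7 to 64.1 CPM) and Lpo (4.80 CPM, others 2.18 to 2.50 CPM). fl/fl IRI 3 held that of Fut2 (7.43 CPM, others 1.30 to 1.96 CPM). fl/fl IRI 1 held that of Fam107a (11.1 CPM) and Rapsn (1.78 CPM). In iGKO IRI 1, Fam107a was lowest at 11.4 CPM and the total count was lowest of its group at 12704273. In iGKO IRI 4, Fosl1 was highest at 7.50 CPM, against 1.48 to 2.00 CPM in the other knockouts.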

How the results depend on the processing

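The calls after IRI depended on the model and on single libraries, while all 153 called genes were counted with the same sign in each setting but 2. The count was 150 with the IRI libraries alone and 152 in that fit without fl/fl IRI 1. These fits tested 17016 and 17429 genes. A called gene that the filter removed is not in the count, so it does not show that a sign changed. Higher and lower calls numbered 29 and 79 with DESeq2 size factors, 406 and 539 with the DESeq2 test, 109 and 243 with no filter, 0 and 0 with the IRI libraries alone, 495 and 492 there without fl/fl IRI 1, and 1843 and 1973 without fl/fl IRI 1 and iGKO sham 4. With 1 library left out the range was 0 to 1282 higher and 0 to 1213 lower. None remained without fl/fl sham 4, fl/fl IRI 3 or 4, or iGKO IRI 1, 2 or 3, where the smallest adjusted p was 0.0508 to 0.133. The count also moved by over 1.5 times without each other library, except for the lower calls without iGKO sham 4. The calls were 6 and 25, 14 and 47, and 7 and 25 without fl/fl sham 1, 2 and 3. They were 6 and 21, 13 and 49, 15 and 52, and 59 and 176 without iGKO sham 1, 2, 3 and 4. They were 4 and 38 without fl/fl IRI 2, and 50 and 42 without iGKO IRI 4. The interaction gave 29 higher and 84 lower with DESeq2, 15 lower with no filter, 705 and 784 without fl/fl IRI 1 and iGKO sham 4, and 0 to 381 and 0 to 395 with 1 library left out. The cause of these shifts was not tested.

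Degs1 was -1.02 (adjusted p = 0.317) with the IRI libraries alone and -1.15 to -0.96 with 1 library left out. With the replicate number as a block, 0 genes were called higher and 0 lower after IRI (smallest adjusted p 0.0524), 1 was called higher in the interaction, Degs1 was -1.04 (adjusted p = 0.0544) and Degs2 0.0187. The labels do not say whether the numbers pair the samples. Deviations of libraries with the same number correlated at -0.241 to 0.0273, and 0 of 4 pairs were best with their own number. So few correlations cannot decide whether the samples were paired. The sign of 4 genes that were not called turned: Degs2 ranged from -0.27 to 0.18 with 1 library left out and was 0.19 without fl/fl IRI 1 and iGKO sham 4 and 0.20 in the IRI libraries alone without fl/fl IRI 1, Slc12a3 ranged from -0.0329 to 0.41, Ppara from -0.0894 to 0.20 and Pdgfrb from -0.27 to 0.0897. Fut2, Lpo, Chac1, Cpz and Col8a2 rest on few reads.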
